A study of Mus musculus with 56 samples.

Results

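The genes described here are the 6 that encode the Id proteins and the E proteins of mouse T cells, *Id1*, *Id2*, *Id3*, *Tcf3*, *Tcf4* and *Tcf12*, out of 55359 genes in the count table. Their rows were found by symbol, and all 6 were present in the table and passed the filter on low counts. RNA-Seq was done on CD8 T cells that bound OVA:Kb tetramers, called fetus/graft-specific T cells (TFGS), sorted at 200 live cells per well from spleen and lymph nodes of female C57BL/6 mice. The cells were endogenous and rare, not from a T cell receptor transgenic line, and the mice carried no engineered allele.

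Naive mice were untreated. Sensitized mice had rejected skin grafts from 2W-OVA.BALB/c donors about a month or more before harvest and were not mated. Naive mice mated with 2W-OVA.BALB/c males, some of whose offspring carry OVA, were taken within days of delivery and their TFGS were sorted as N+P C1 (PD1-) and N+P C5 (PD1+CD73+). Sensitized mice mated in the same way gave S+P C4 (PD1-), S+P C5 (PD1+CD73+) and S+P C7 (PD1+CD73-). Counts of repeat libraries were added up per mouse and subset. There were 3 Naive samples, 3 of N+P C1, 3 of N+P C5, 4 Sensitized samples, 6 of S+P C4, 6 of S+P C5 and 5 of S+P C7.

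E proteins are basic helix-loop-helix transcription factors that bind DNA at E-box motifs as dimers. *Tcf3* encodes E2A, *Tcf12* encodes HEB and *Tcf4* encodes E2-2. Id proteins have the helix-loop-helix part but no basic, DNA-binding part, so an Id protein that pairs with an E protein keeps it off DNA. In CD8 T cells, Id2 is known for its role in effector and terminally differentiated cells, and Id3 for its role in long-lived memory and less differentiated cells.

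On GRCm39 (GENCODE M39 gene models), *Id1* is on the plus strand at chr2:152566218-152579544, *Id2* on the minus strand at chr12:25143798-25147282 and *Id3* on the plus strand at chr4:135870808-135873066. The results turn on *Id2* and *Id3*, whose coding sequences are alike where they encode the helix-loop-helix. The stretch of 90 coding bases in which they share most is printed for both, 5′ to 3′, in lower case with the 26 bases that differ in capitals. It lies in the first coding exon of each gene, at chr12:25145782-25145871 (minus strand) for *Id2* and chr4:135871343-135871432 (plus strand) for *Id3*.

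Id2: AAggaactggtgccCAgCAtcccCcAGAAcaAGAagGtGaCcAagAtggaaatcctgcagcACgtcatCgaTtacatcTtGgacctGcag
Id3: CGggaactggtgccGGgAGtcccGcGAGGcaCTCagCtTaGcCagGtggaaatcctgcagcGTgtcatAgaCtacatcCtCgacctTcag

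Over this stretch 71.1% of bases were identical. The longest run of identical bases between the canonical transcripts of *Id2* and *Id3* was 19, and between any 2 of the E protein genes 26. No run of 50 bases was shared by any 2 Id genes or by any 2 E protein genes, and reads that matched more than 1 place had been removed by the authors. An antisense lncRNA gene in the table, *Gm36287*, overlaps 466 exon bases of *Id2*, and without strand its reads cannot be told apart from those of *Id2*.

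The 56 libraries held from 6636532 to 32625243 counts. One library appeared with identical counts under Naive replicate 1 and S+P C4 replicate 1 and was left out of both, and 2 nearly identical libraries of S+P C7 (Pearson's r 0.999 on log2 CPM, across genes) were averaged into S+P C7 replicate 1. Levels are given as CPM, the read count scaled to library size, here after TMM normalization. The 7 CD8 T cell markers (*Cd3d*, *Cd3e*, *Cd3g*, *Cd8a*, *Cd8b1*, *Trac* and *Thy1*) summed to between 4770 and 9110 CPM in every sample. Of the CD4 T cell markers, *Cd4* was at most 3.71 CPM and *Foxp3* at most 4.45. *Cd40lg* reached 48.1 CPM in N+P C5, where its mean was 23.2, against means of 4.5 in Naive and 13.6 in S+P C5. Few genes had a count in S+P C4 replicate 2 (8002), S+P C4 replicate 3 (7436) and S+P C7 replicate 3 (7879), against at least 12383 in the other 27 samples. S+P C7 replicate 3 also held 16500 CPM of 2 hemoglobin genes and 8230 CPM over 7 B cell markers, nearly all *Ighm*. The next highest B cell sums were 1370 CPM in Naive replicate 1 and 1330 CPM in N+P C5 replicate 1. *Pdcd1*, the gene of the PD-1 gate, had 1 count in S+P C7 replicate 3, whereas the other 4 S+P C7 samples had from 166 to 578 CPM. *Pdcd1* and *Nt5e* (CD73) were both at 0 in S+P C4 replicate 3. The part of these features in the members' values was not tested. Values without the 3 samples of few detected genes are given beside the main results of S+P C4 and S+P C7.

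*Id2* had the highest mean level per kb of transcript of the 6 genes in every group. It was lowest in Naive TFGS, with 189, 222 and 232 CPM (mean 214 ± 22.1 SD, n = 3), and close to that in N+P C1, with 257, 247 and 252 CPM (252 ± 4.88). N+P C5 had 515, 467 and 565 CPM (516 ± 48.9), above every Naive and N+P C1 sample. These 3 groups had the narrowest spread of the study in summed samples. Single libraries spread more widely, from 175 to 344 CPM in N+P C1, both from replicate 2, and from 189 to 264 CPM in Naive.

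In Sensitized TFGS *Id2* had 800.0, 1852, 1027 and 1035 CPM (1179 ± 462, n = 4). S+P C4 ran from 673 to 1451 CPM with a median of 892 (966 ± 268, n = 6), and S+P C5 from 417 to 1041 with a median of 603 (654 ± 223, n = 6). S+P C7 had 1816, 2306, 756, 702 and 869 CPM (1290 ± 727, n = 5), so that its 2 highest samples stood apart from the other 3, and the second of them is the sample with few detected genes and hemoglobin transcripts. The 5 NK cell markers (*Ncr1*, *Klrb1c*, *Klre1*, *Tyrobp* and *Fcer1g*) summed to 531 and 1160 CPM in these 2 samples and to between 75 and 120 CPM in the other 3. The 5 conventional dendritic cell markers summed to 84.7 and 643 CPM against 23.9 to 67.8. Their part in the *Id2* level was not tested. Without that sample the S+P C7 mean was 1036 ± 525 (n = 4). The order of the group means was Naive, N+P C1, N+P C5, S+P C5, S+P C4, Sensitized and S+P C7. Samples of neighbouring groups overlapped from N+P C5 upward, while N+P C5 samples lay wholly above N+P C1 and N+P C1 samples wholly above Naive. Single libraries of N+P C1 and Naive did overlap.

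**Figure D1:**
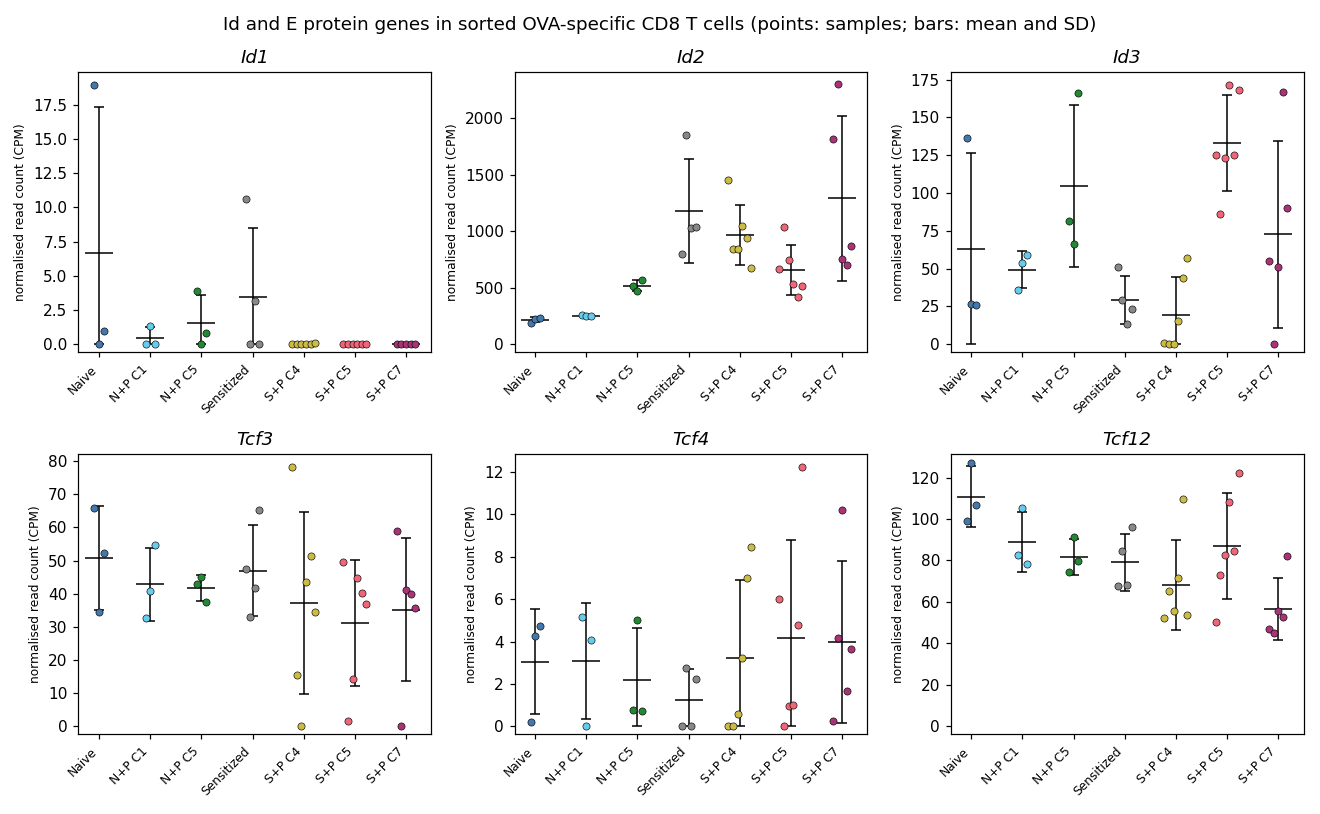
Normalised read count (CPM, linear axes from 0) of each member in the 7 groups, with 1 point per sample and bars for the mean and SD, cut at 0. *Id2* is between 189 and 257 CPM in all Naive and N+P C1 samples and at least 417 CPM in all other samples, *Id1* is at or near 0 in all 17 S+P samples, and the E protein genes overlap between most groups.

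In 1 edgeR quasi-likelihood fit of all 7 groups, with Benjamini-Hochberg adjustment over 19657 genes, 2 of the 6 members differed somewhere between the groups at an adjusted p under 0.1, against 1.84% of all genes. This fit took all samples as independent, although the N+P subsets shared mice and so did the S+P subsets. Its p values therefore ignore that pairing. *Id2* had an adjusted p of 0.000154 and was 11th of all genes by p. *Id1* had an adjusted p of 0.0923 and passed in 5 of 30 fits that each left out 1 sample. Other subsets of the same mouse stayed in those fits. *Id1* did not pass without the 3 samples of few detected genes or with DESeq2 on the summed libraries. *Id3* had 0.676 and the 3 E protein genes had 1.

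A gene was called in a single comparison at an adjusted p under 0.1 where its log2 fold change was also above 0.9 in size. *Id2* rose in Sensitized against Naive TFGS by 2.46 on the log2 scale (SE 0.40, adjusted p 0.00217 by edgeR), or 5.5-fold, with no overlap between the 4 and 3 samples, as in 7.59% of all genes. The sum of the NK cell markers was also higher, at 101 to 162 CPM in Sensitized (5 of 5 with more than 3 counts in a sample) against 0.0378 to 32.8 in Naive (3 of 5). Means of *Tyrobp* (9.64 against 10.9 CPM) and *Fcer1g* (3.93 against 6.89) were not higher in Sensitized. The sum in Sensitized was mostly *Klrb1c* and *Klre1*, and *Ncr1* was at most 1.90 CPM there. Conventional dendritic cell markers summed to 33.4 to 96.8 CPM (3 of 5) against 0.597 to 3.17 (3 of 5), mostly *Itgax*, with *Clec9a* at most 0.050 CPM and *Flt3* at 0 in Sensitized. Other sums were lower in Sensitized than in Naive. B cell markers, mostly *Ighm*, had 211 to 373 CPM against 671 to 1370, and plasmacytoid dendritic cell markers, mostly *Ccr9* and *Bst2*, 79.5 to 128 against 183 to 300. The part of these markers in the *Id2* level was not tested. *Id2* was the only member called in this comparison, where 0.153% of all genes were called. It was also the only one with an unadjusted p under 0.05, as 7.82% of all genes had, and it ranked 5th by p. With each sample left out in turn the estimate ran from 2.15 to 2.59 and was called in all 7 fits. The adjusted p was 0.399, however, when genes of low count were also tested.

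*Id2* was also higher in S+P C4 than in N+P C1, the PD1- subsets of the 2 kinds of post-partum mice, by 1.94 (SE 0.37, adjusted p 0.0264), and the samples did not overlap, as in 3.29% of all genes. Here 1 of 6 members and 0.061% of all genes were called, and 1 member and 9.22% of all genes had an unadjusted p under 0.05. The call was lost when any 1 of the 3 N+P C1 samples was left out, with adjusted p from 0.411 to 0.564, although the estimate stayed between 1.92 and 1.95. It was also lost when genes of low count were tested (adjusted p 0.461), and kept without each single S+P C4 sample and without the samples of few detected genes. The NK cell markers summed to between 2.68 and 561 CPM in S+P C4 and between 7.35 and 15 CPM in N+P C1. The S+P C4 sum was mostly *Klre1* (mean 286 CPM) and *Klrb1c* (38.6), with means of 1.1 for *Ncr1*, 4.32 for *Tyrobp* and 6.38 for *Fcer1g*. The part of these markers in the result was not tested.

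**Figure D2:**
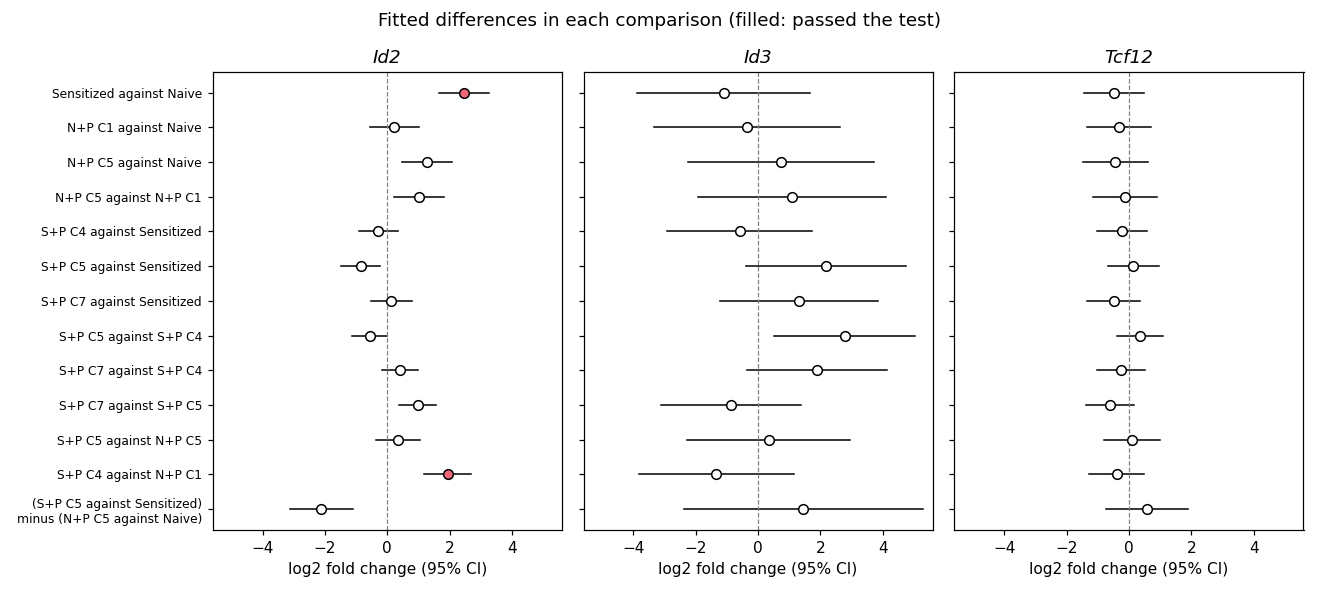
Fitted log2 fold change (points) with its 95% confidence interval (lines) for *Id2*, *Id3* and *Tcf12* in each of the 13 comparisons, with filled points for calls. The only 2 filled points are *Id2* in Sensitized against Naive (2.46) and in S+P C4 against N+P C1 (1.94), and the intervals of *Id3* are the widest.

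The PD1+CD73+ subset of naive mice that had given birth had more *Id2* than Naive TFGS in all samples, with no overlap (as in 12.9% of all genes) and a log2 fold change of 1.27 (95% CI 0.46 to 2.07, p 0.00304, adjusted p 0.765). No member was called by edgeR in N+P C5 against Naive, where 0.0407% of all genes were. *Id2* was the 1 member with an unadjusted p under 0.05, as 5.33% of all genes had, and DESeq2 on the summed libraries called it. Within these mice, N+P C5 exceeded N+P C1 without overlap, as in 10.8% of all genes, by 1.03 (95% CI 0.23 to 1.83, adjusted p 0.919). Without overlap *Id2* must be higher in N+P C5 in 3 of 3 mice, here by 0.91 to 1.16 on the log2(CPM + 1) scale. With mouse as a replicate block, in an edgeR fit of N+P C5 and N+P C1 only, the difference was 1.03 at an adjusted p of 0.0929, a call. *Id2* was also called without the block when only these groups were fitted, so the call cannot be credited to the block. In the fit of all 7 groups no member and 0.00509% of all genes were called. There 1 member (*Id2*) and 4.31% of all genes had an unadjusted p under 0.05, and DESeq2 on the summed libraries called none. N+P C1 lay above Naive without overlap, as did 7.3% of all genes in either direction, by 0.23 (95% CI -0.56 to 1.03). In that comparison no gene was called (0%), no member but 3.23% of all genes had an unadjusted p under 0.05, and DESeq2 on the summed libraries called no member.

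In sensitized mice no rise in *Id2* after pregnancy passed the test. *Id2* in S+P C5 against Sensitized had a log2 fold change of -0.85 (95% CI -1.47 to -0.23, adjusted p 0.277), in S+P C4 of -0.29 (95% CI -0.91 to 0.34) and in S+P C7 of 0.13 (95% CI -0.52 to 0.78). The share of all genes called was 0.0712% for S+P C5, 0.00509% for S+P C4 and 0.0305% for S+P C7. No member was called in any of these 3 by edgeR or by DESeq2 on the summed libraries. The members with an unadjusted p under 0.05 were *Id1* in all 3 and *Id2* in S+P C5, and the shares of all genes were 13% for S+P C5, 12.7% for S+P C4 and 10.2% for S+P C7. The sign for S+P C7 was not stable, at -0.19 without S+P C7 replicate 3 and 0.44 without Sensitized replicate 2. Without Sensitized replicate 2, which had the highest *Id2* of its group, the value for S+P C5 was -0.55 and that for S+P C4 was 0.02.

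The change from Sensitized to S+P C5 was set against that from Naive to N+P C5, and the difference in *Id2* was -2.12 on the log2 scale (95% CI -3.13 to -1.10, p 0.000177). It missed the adjusted threshold (adjusted p 0.317), as did all members, while 0.0254% of genes were called. *Id1* and *Id2* had an unadjusted p under 0.05, as 6.42% of all genes had, and DESeq2 on the summed libraries called *Id2*. Without the 3 samples of few detected genes the estimate was -2.11 with an adjusted p of 0.0359. Between the PD1+CD73+ subsets themselves, *Id2* in S+P C5 differed from N+P C5 by 0.34 (95% CI -0.35 to 1.04). No gene was called there, 1 member (*Id1*) and 5.88% of all genes had an unadjusted p under 0.05, and DESeq2 on the summed libraries called no member.

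Among the 3 subsets of sensitized post-partum mice, *Id2* had a log2 fold change of -0.56 in S+P C5 against S+P C4 (95% CI -1.12 to 0.00, adjusted p 0.372) and was lower in 5 of 6 mice. In S+P C7 against S+P C4 it was 0.42 (95% CI -0.17 to 1.00), and -0.013 without the samples of few detected genes. In S+P C7 against S+P C5 it was 0.98 (95% CI 0.39 to 1.57, adjusted p 0.278), and 0.64 without the samples of few detected genes. The S+P C7 value was above the S+P C5 value in 4 of 4 mice, by 0.50 to 1.63 on the log2(CPM + 1) scale, with the averaged S+P C7 sample left out. No member was called by edgeR in these 3 comparisons, in which 0.0305%, 0.00509% and 0% of all genes were called. The members with an unadjusted p under 0.05 numbered 2, 0 and 1, against 13.3%, 15.9% and 12.7% of all genes, and DESeq2 on the summed libraries called 0, 0 and 1.

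*Id3* had another order. It was highest in S+P C5, between 86.4 and 172 CPM with a median of 125 (133 ± 31.9, n = 6). N+P C5, the other PD1+CD73+ subset, had 81.6, 66.2 and 166 CPM (105 ± 53.8, n = 3). Every sample of both PD1+CD73+ groups was at 66.2 CPM or more.

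In the PD1- subsets it was lower, with 35.6, 53.8 and 58.7 CPM in N+P C1 (49.3 ± 12.2, n = 3). S+P C4 ranged from 0.0521 to 57.3 CPM with a median of 7.85 (19.4 ± 25.0, n = 6). S+P C7, which is PD1+CD73-, had a wider range, with 54.8, 0, 51.3, 167 and 90.1 CPM (72.7 ± 61.8, n = 5), or 90.8 ± 53.8 (n = 4) without S+P C7 replicate 3. In S+P C4, 3 samples had under 1 CPM, and 2 of them were the samples of few detected genes. The third, replicate 1, had 12383 detected genes and 1451 CPM of *Id2*.

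Naive TFGS had 136, 26.7 and 25.8 CPM of *Id3* (63.0 ± 63.6, n = 3), and the first of these samples had a single library left. Sensitized TFGS had 51.3, 29.1, 13.5 and 23.2 CPM (29.3 ± 16.05, n = 4). Sensitized and Naive samples overlapped, with a log2 fold change of -1.11 (95% CI -3.87 to 1.66), which became 0.16 without Naive replicate 1.

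*Id3* in S+P C5 lay above every Sensitized and every S+P C4 sample. Against S+P C4 the log2 fold change was 2.78 (95% CI 0.53 to 5.03, p 0.0172, adjusted p 0.297), and 0.687% of all genes had samples that did not overlap in this comparison. Over the alternative settings this estimate ran from 2.17 to 6.65. Without overlap *Id3* must be higher in S+P C5 than in S+P C4 in all 6 same-numbered pairs. The differences were 1.51 to 6.82 on the log2(CPM + 1) scale, the largest where S+P C4 had under 1 CPM. Without the 2 S+P C4 samples of few detected genes the S+P C4 mean was 29.1 ± 25.9 CPM (n = 4). Against Sensitized it was 2.19 (95% CI -0.38 to 4.75, adjusted p 0.532), where 2.88% of all genes did not overlap.

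N+P C5 also lay above N+P C1 in *Id3* without overlap, as did 10.8% of all genes, at a log2 fold change of 1.09 (95% CI -1.93 to 4.10). *Id3* was therefore higher in N+P C5 in 3 of 3 mice, which adds nothing to the lack of overlap. Against Naive it was 0.73 (95% CI -2.26 to 3.73) with overlap. S+P C7 differed from S+P C4 by 1.90 (95% CI -0.34 to 4.14) and from S+P C5 by -0.88 (95% CI -3.12 to 1.37), or by 1.61 and -0.57 without the samples of few detected genes. S+P C5 differed from N+P C5 by 0.35 (95% CI -2.27 to 2.96). None of these passed the test.

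Repeat libraries of the same mouse and subset showed how far each gene was reproducible. In 23 samples with a pair of libraries, the absolute log2 difference in *Id2* between the pair had a median of 0.221 and a maximum of 0.972, in N+P C1 replicate 2. The median SD between mice of a group was 0.373, above that median and below that maximum. For *Id3* the median was 0.824 and the maximum 3.09, beside an SD between mice of 0.767. The SD is taken over summed samples, so it is not the same measure as a difference between libraries. *Tcf12* and *Tcf3* had medians of 0.332 and 0.435, and *Tcf4* of 2.06.

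**Figure D3:**
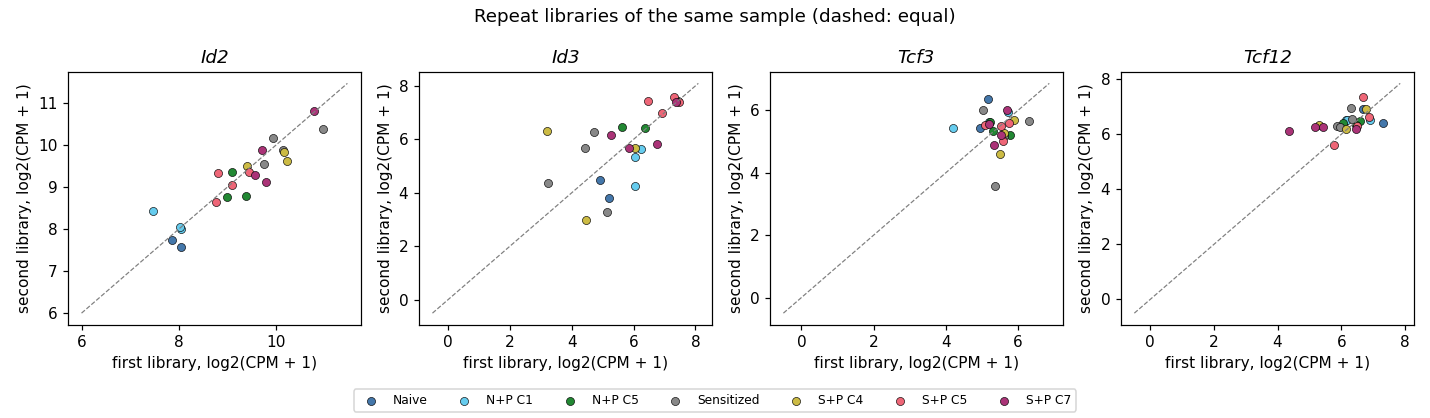
Repeat libraries of the same sample, with the first library on the x axis and the second on the y axis, both as log2(CPM + 1), 1 point per sample and colours for groups. *Id2* pairs lie near the dashed line of equal values (median absolute difference 0.221), while *Id3* pairs scatter (0.824).

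Levels of different genes were compared as CPM per kb of transcript. Group means of *Id2* ran from 87.1 to 524 CPM per kb, of *Id3* from 15.2 to 104, of *Tcf12* from 9.58 to 18.8, of *Tcf3* from 7.17 to 11.7, of *Id1* from 0 to 5.76 and of *Tcf4* from 0.140 to 0.464. *Id2* exceeded *Id3* per kb in all samples except Naive replicate 1, where the ratio was 0.721.

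The median ratio of *Id2* to *Id3* per kb was 4.32 for Naive samples, while N+P C1 had 2.39 and N+P C5 had 3.28. It was 28.2 in Sensitized (8.09 to 39.5) and 23.6 in S+P C4 (6.10 to 1140, in the 4 samples with *Id3* above 3 counts). In S+P C5 it was 2.26 (1.58 to 6.25), below every Sensitized sample, and in S+P C7 it was 6.33 (2.18 to 17.2, 4 samples). Thus *Id2* made up a median of 68.5% of the Id sum per kb in S+P C5 and 96.4% in Sensitized. These ratios are given without a test.

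**Figure D4:**
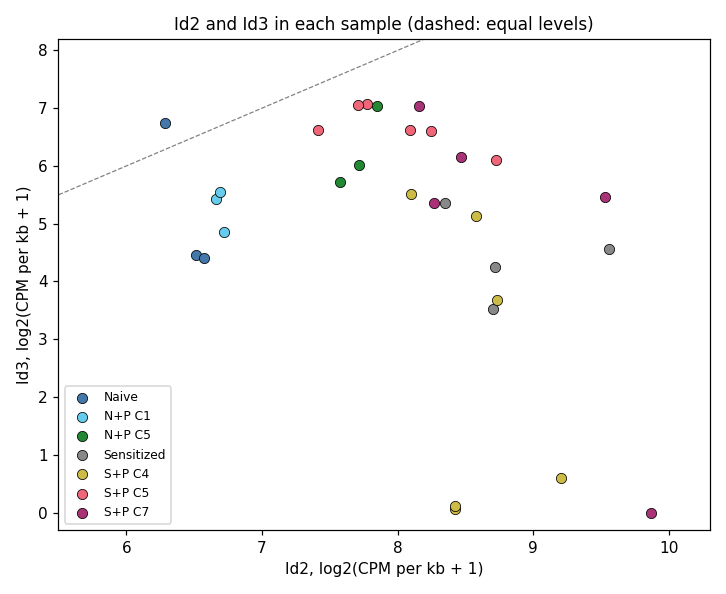
*Id3* against *Id2* in each of the 30 samples, both as log2(CPM per kb + 1), coloured by group, with a dashed line of equal levels. S+P C5 and N+P C5 lie high in *Id3*, Sensitized and S+P C4 lie lower in *Id3* at high *Id2*, and 4 samples with *Id3* near 0 sit at the bottom.

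*Id1*, the Id gene known from endothelial and progenitor cells, was near its detection limit. More than 3 counts were found in 9 of 53 libraries, none of them from post-partum sensitized mice. Naive TFGS had 19.0, 0 and 0.982 CPM, N+P C1 had 0, 1.36 and 0, N+P C5 had 3.88, 0 and 0.776, and Sensitized had 10.6, 0, 3.13 and 0. The S+P samples had 0 in 16 of 17, and S+P C4 replicate 6 had 2 counts.

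Samples of the other groups were also at 0 in 6 of 13, so overlap was present throughout. With the floor set at 3 counts per library, the mean of *Id1* was at least 20.9-fold lower in S+P C4, 21.2-fold lower in S+P C5 and 20.9-fold lower in S+P C7 than in Sensitized. Without Sensitized replicate 1, which had most of the *Id1* counts of its group, these bounds were 6.32-fold, 6.43-fold and 6.32-fold. The unadjusted p values were 0.00803, 0.00210 and 0.00408, and the adjusted p values 0.317, 0.277 and 0.473. Floors cover counting error only, since the reads carry no molecular identifiers. In these bulk samples, fewer cells with a transcript and less RNA per cell cannot be told apart.

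On GRCm39, *Tcf3* lies on the minus strand at chr10:80244046-80269594, *Tcf12* on the minus strand at chr9:71749970-72019177 and *Tcf4* on the plus strand at chr18:69476427-69822150. These E protein genes did not pass the test in any comparison. In 39 tests, 3 genes in 13 comparisons, edgeR called 0, and 0 had an unadjusted p under 0.05. The lowest was 0.112, for *Tcf12* in S+P C7 against S+P C5. DESeq2 on the summed libraries or on separate libraries called no E protein gene.

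*Tcf12* (HEB) was the most abundant of the 3 and had 98.9, 127 and 107 CPM in Naive (111 ± 14.5, n = 3). Sensitized samples were lower without overlap, at 67.6, 84.8, 68.0 and 96.1 CPM (79.1 ± 13.8, n = 4), as were N+P C5 samples, at 74.5, 91.2 and 79.7 (81.8 ± 8.58, n = 3). The log2 fold changes against Naive were -0.49 (95% CI -1.45 to 0.47) and -0.44 (95% CI -1.47 to 0.60), and 7.59% and 12.9% of all genes did not overlap in these comparisons. S+P C7 had the lowest mean, with 46.8, 44.98, 55.7, 52.6 and 82.2 CPM (56.5 ± 15.0, n = 5).

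Against S+P C5 (86.8 ± 25.6, n = 6), *Tcf12* in S+P C7 had a log2 fold change of -0.62 (95% CI -1.39 to 0.15, adjusted p 0.659) and was lower in 4 of 4 mice, by 0.57 to 0.95 on the log2(CPM + 1) scale. Against Sensitized it was -0.49 (95% CI -1.33 to 0.36).

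*Tcf3* (E2A) had group means between 31.2 and 50.8 CPM. It was at 0 in S+P C4 replicate 3 and S+P C7 replicate 3, which are among the samples of few detected genes, and at 1.60 CPM in S+P C5 replicate 2. Without the 3 samples of few detected genes, its means were 51.9 ± 18.8 CPM in S+P C4 and 43.9 ± 10.303 CPM in S+P C7 (n = 4 each). *Tcf4* (E2-2), best known from plasmacytoid dendritic cells, had means between 1.25 and 4.16 CPM and more than 3 counts in 37 of 53 libraries. No difference in *Tcf4* passed the test. The intervals of both genes were wide. In Sensitized against Naive the 95% CI of the log2 fold change was -2.665 to 2.434 for *Tcf3* and -5.621 to 3.043 for *Tcf4*.

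No E protein gene was called, but the E protein sum per kb also varied between groups. Its median was 30.6 in Naive (29.94 to 31.92), 22.6 in N+P C5 (22.21 to 26.4) and 22.4 in Sensitized (21.12 to 31.57). In the other groups its medians ran from 20.1 to 26.4. The ratio of summed Id to summed E protein levels per kb, in which both parts vary, had a median of 3.76 in Naive samples (3.71 to 6.27). The median was 5.63 for N+P C1 (5.27 to 5.97), and N+P C5 had 12.2 (9.14 to 16.2). It was 18.5 in Sensitized (13.9 to 34.8), 20.7 in S+P C4 (13.3 to 36.1), 15.1 in S+P C5 (11.1 to 38.5) and 22.7 in S+P C7 (17.3 to 116). The highest values of S+P C4 and S+P C7 came from their replicates 3, in which *Tcf3* was at 0, and without the samples of few detected genes the highest were 22 and 36.3. All 21 samples from Sensitized and S+P mice, and all 3 of N+P C5, were above all 6 samples of Naive and N+P C1. *Id2* made up a median of 68.5% to 98.6% of the Id sum in each group, so the ratio is not independent of the *Id2* level. The ratio concerns RNA, and protein levels were not measured.

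Genes that act with the Id and E proteins were read as lists. Of 17 genes reported as E protein targets in lymphocytes, 14 were tested. Those that differed between the 7 groups at an adjusted p under 0.1, as 1.84% of all genes did, included *Il7r* (adjusted p 0.00104), *Ccr7* (0.00224), *Cdk6* (0.0310) and *Tcf7* (TCF-1, 0.0370). *Ccr7*, *Cdk6* and *Tcf7* were named after their values were seen. In single comparisons the 1 gene called was *Il7r*, the IL-7 receptor, lower in S+P C5 and S+P C7 than in Sensitized. *Ccr7*, which guides cells to lymph nodes, had a mean of 1260 ± 143 CPM in Naive, 271 ± 179 in Sensitized and 86.5 ± 36.6 in S+P C5. *Tcf7* had 495 ± 118 CPM in S+P C5, 309 ± 170 in S+P C4 and 210 ± 118 in S+P C7. *Cdk6*, a cell cycle kinase, had 59.4 ± 9.60 CPM in Naive, 156 ± 33.5 in Sensitized and 301 ± 161 in S+P C7. The median log2 fold change of the 14 genes was -0.10 in Sensitized against Naive, beside 0.04 over all genes tested, and -0.66 in S+P C7 against S+P C5, beside 0.01.

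Among other factors that bind E-boxes, 19 of 22 were tested and 2 rose in Sensitized against Naive, where 0.153% of all genes were called. They were *Zeb2* (adjusted p 0.0343 by edgeR) and *Bhlhe40* (adjusted p 0.00547). *Zeb2*, a factor of terminal effector CD8 T cells, went from a mean of 0.0964 ± 0.0861 CPM in Naive, with at most 5 counts in a library, to 122 ± 55.9 in Sensitized. *Bhlhe40* went from 0.132 ± 0.114 CPM to 188 ± 93.6 in Sensitized and to 239 ± 123 in N+P C5, where it was also called (adjusted p 0.0164). Its change from Sensitized to S+P C5 was lower than that from Naive to N+P C5 (adjusted p 0.0529). N+P C1 means were also above Naive, at 11.9 ± 5.54 CPM for *Zeb2* and 19.7 ± 13.7 for *Bhlhe40*, and neither was called there. No fold is given, because the Naive levels rest on few counts.

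The remaining lists held no call in any comparison or across the 7 groups by edgeR. They were 11 tested of 15 binding partners and cofactors, 18 of 19 receptors and factors upstream of Id genes, and all 5 genes of Id protein turnover. At an unadjusted p under 0.05 in Sensitized against Naive, 1 partner was higher and 1 lower, 2 upstream genes were higher and none lower, and no turnover gene passed, beside 7.82% of all genes. Over all 13 comparisons the partners had from 0 to 2 higher and 0 to 1 lower, the upstream genes 0 to 2 each way and the turnover genes 0. The smallest adjusted p values across the 7 groups were those of *Tal1* (0.142) and *Lyl1* (0.146) among partners, of *Stat4* (0.131) and *Smad3* (0.185) upstream, and of *Fzr1* and *Stub1* (1 each) in turnover. Calls of the list genes by DESeq2 are not given.

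The genes whose levels ranked most like *Id2* over the 30 samples were *Ccl5* (Spearman's rho 0.908), *Chsy1* (0.835), *Ahnak* (0.833), *S100a10* (0.830) and *Fasl* (0.825). *Ccl5*, a chemokine of effector and memory T cells, had a mean of 160 CPM in Naive and 7520 in Sensitized. For *Id3* they were *Ephx1* (0.845), *Gm4956* (0.842), *Cd83* (0.834), *Btla* (0.833), an inhibitory receptor, and *Tspan32* (0.814). *Tcf3* ranked with *Cfap298* (0.790), *Ccdc85b*, *Psmd3*, *Vps72* and *Nr1h2*, and *Tcf12* with *Impg1* (0.737), *Prorp*, *Fam118b*, *Scaf11* and *Tmem243*. The low *Id1* ranked with *Gm43721* (0.679), *Trav7-5*, *Trem6l*, *Tbxa2r* and *Capn1*, and the low *Tcf4* with *C030034I22Rik* (0.705), *Gm54621*, *Gm14455*, *Trpv6* and *Apol8*. *Id2* ranked against *Id3* (rho -0.448) and *Tcf12* (rho -0.537). These correlations are descriptive, over samples that differ in group and depth.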

How the data were processed

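The authors trimmed paired-end SmartSeq2 reads with Cutadapt 3.4, aligned them to GRCm39 with STAR 2.6.1b, removed reads that did not map uniquely, and deposited raw read counts per gene from featureCounts 2.0.1. The strand setting and annotation release are not given in the sources used here. Here, genes were named from GENCODE M39 (54749 of 55359 identifiers matched). Library columns were summed per mouse and subset, and repeated columns handled as described. The 56 libraries had a median of 17299849 counts.

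Counts were fitted with edgeR 4.0.16 (quasi-likelihood test, TMM, minimum count of 10, robust, two-sided) in R 4.3.3, with all 7 groups in 1 fit and Benjamini-Hochberg adjustment over 19657 genes. The main fit had no term for mouse. Genes were called at an adjusted p under 0.1 where the log2 fold change also exceeded 0.9 in size, the rule of the study's methods. DESeq2 1.42.0, another normalization, no filter, other handling of repeated libraries, other thresholds, fewer samples or groups, a replicate block and leaving out each sample were the alternatives. A sample is 1 subset of 1 mouse, so other subsets of that mouse stayed in the fit. The code was tested on simulated data.

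Subsets with the same number were taken as the same mouse, since the columns share the mouse part of their names. The study states fewer samples per group than the highest replicate number in the labels. The nearly identical libraries of S+P C7 also carried different replicate numbers. Whether each number is a separate mouse is therefore uncertain. Deviations from group means correlated between same-numbered samples with a mean r, across genes, of 0.0749 (N+P C5 with N+P C1), 0.139 (S+P C5 with S+P C4), 0.193 (S+P C7 with S+P C4) and 0.157 (S+P C7 with S+P C5). Named genes were the 6 members, the list genes called in a comparison described or otherwise the 2 of the list with the smallest p across the groups, and the 5 genes closest to each member by rank correlation of log2 CPM. Members and lists were chosen with earlier results of these data known. Some genes of the lists are not reported here.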

Additional observations from a re-analysis of the deposited data

Results flagged for a closer look

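In groups of 4 to 6 samples, 21 sets of values of a member were examined for a sample far from the others, and 2 were flagged, where chance flags about 1 in 20. Both were in *Tcf12*. S+P C4 replicate 5 had 109.602 CPM, and the next highest sample of its group had 71.4 CPM. S+P C7 replicate 6 had 82.2345 CPM, and the next highest had 55.7 CPM. The cause was not tested.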

How the results depend on the processing

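Without a filter on low counts no member was called in Sensitized against Naive or in S+P C4 against N+P C1 (0 each, with *Id2* at adjusted p 0.399 and 0.461). DESeq2 on summed libraries called 1 member, *Id2*, in N+P C5 against Naive, S+P C7 against S+P C5 and the difference of changes. DESeq2 on separate technical libraries, which counts libraries of 1 mouse as replicates, called 3 members in S+P C5 against Sensitized, 2 in S+P C5 against S+P C4 and in the difference of changes, and 1 in N+P C5 against Naive or N+P C1, S+P C7 against Sensitized, S+P C4 or S+P C5, and S+P C5 against N+P C5. With only the groups compared in the fit, 1 member was called in N+P C5 against Naive or N+P C1, in S+P C5 against Sensitized (*Id3*, adjusted p 0.0215) and in the difference of changes. Without the 3 samples of few detected genes, 1 was called in the difference of changes. Across the 7 groups 2 members passed, and 1 (*Id2*) at an adjusted p under 0.05, without those 3 samples or with DESeq2 on summed libraries. With each sample left out, 1 to 2 passed, *Id2* in 30 of 30 fits and *Id1* in 5, and 0 to 1 were called in S+P C4 against N+P C1.

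The replicate block was fitted on the N+P subsets or the S+P subsets alone. With it 1 member was called in N+P C5 against N+P C1 (*Id2*, 1.03), as without the block when only those groups were fitted. No other call changed with the block, but estimates of *Id3* moved widely over the alternatives, the block among them. They ran from 2.17 to 6.65 in S+P C5 against S+P C4 and from -4.94 to -0.57 in S+P C7 against S+P C5. Some uncalled values changed sign. Without the 3 samples, *Id3* in S+P C4 against Sensitized was 0.043, and *Id2* in S+P C7 was -0.19 against Sensitized and -0.013 against S+P C4. With each sample left out, *Id3* in Sensitized against Naive ran from -1.53 to 0.16, *Id2* in S+P C4 against Sensitized from -0.41 to 0.02 and *Id2* in S+P C7 against Sensitized from -0.19 to 0.44. The causes were not tested. The median over all genes was -0.14 in S+P C4 against Sensitized, 0.11 in S+P C5 against S+P C4 and 0.23 in S+P C7 against S+P C4, on the log2 scale. *Id1* had more than 3 counts in 9 of 53 libraries and *Tcf4* in 37.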
